A study of Mus musculus with 18 samples.

Results

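The genes described here are 10 genes of white adipocytes, Adipoq, Plin1, Plin4, Fabp4, Cidec, Lep, Retn, Cfd, Lipe, and Pparg. They were chosen by name, and their rows were taken from an expression matrix of 20878 genes in 18 tumors. The tumors grew in mice from K7M2, a poorly differentiated osteosarcoma cell line of Balb/c origin, which carried either a control shRNA (ATRXCT) or an shRNA against Atrx (ATRXKD), a gene coding a chromatin remodeler. The cells were grafted under the skin of immunocompetent Balb/c mice (Balb/cJ) or of immunodeficient NSG mice. NSG is a NOD strain with the scid mutation of Prkdc and an inactivated Il2rg. It lacks T, B, and NK cells but keeps macrophages, endothelium, and adipose tissue. There were 4 Balb/c ATRXCT tumors (mice 41, 43, 44, and 45), 4 Balb/c ATRXKD tumors (mice 56, 58, 59, and 60), 5 NSG ATRXCT tumors (mice 1 to 5), and 5 NSG ATRXKD tumors (mice 26 to 30). The mice were young females per the study's methods, and each tumor came from its own mouse. Whole cages were given 1 kind of cells and the labels name no cage, so cage and knock-down cannot be told apart. The hosts also differ in their whole strain background and in RNA of Y-linked genes (given below). Strain, sex, and immune status of the hosts thus cannot be told apart either.

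White adipocytes store triglyceride in a large lipid droplet and release it as fatty acids on demand. Their identity is set by the nuclear receptor PPARγ together with C/EBPα, which switch on genes of the droplet coat, of fatty acid handling, and of secreted hormones such as adiponectin and leptin. Adipose tissue lies between muscles and under the skin, where the cells of this study were grafted. RNA of a whole tumor sample holds the RNA of every cell in it, so fewer cells of a type and less RNA per cell cannot be told apart.

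Expression was measured by RNA sequencing as FPKM, fragments scaled to transcript length and library size, which is a level per length. Libraries held an estimated 15150000 to 25200000 fragments. In all tumors, 3 fragments of a member corresponded to at most 0.410 FPKM (Fabp4, the shortest transcript) and at most 0.0354 FPKM (Plin4, the longest), and values at or under this floor are named as such below. Atrx had a mean of 17.6 ± 7.12 FPKM (SD, n = 4) in Balb/c ATRXCT tumors and 14.0 ± 6.54 (n = 4) in Balb/c ATRXKD tumors, with overlapping groups. Balb/c ATRXKD mice 56, 58, 59, and 60 were at 21.5, 7.88, 9.11, and 17.3 FPKM. Libraries also differed in how levels changed with transcript length. This slope, in log2 units per doubling of length, was 0.211, −0.099, −0.122, and 0.12 in the same 4 tumors. In NSG mice, Atrx had a mean of 17.6 ± 4.99 FPKM (SD, n = 5) in ATRXCT and 10.2 ± 3.47 (n = 5) in ATRXKD tumors, with NSG ATRXKD mouse 27 at 16.4 FPKM. The length slope was 0.124 in mouse 27, against −0.084 to −0.035 in the other NSG ATRXKD tumors. The part of this slope in the Atrx values was not tested. Of 10 genes of the osteoblast lineage, Spp1, Col1a1, Phex, and Runx2 had means of 339, 164, 45.6, and 5.85 FPKM over the 18 tumors. The others, Alpl, Bglap2, Bglap, Sp7, Dmp1, and Ibsp, had means of at most 0.288 FPKM. Bglap was listed at 0 in every Balb/c ATRXCT tumor and Ibsp in every ATRXKD tumor. The list thus does not settle the K7M2 label. Among Balb/c tumors, keratinocyte genes stood high in ATRXCT mouse 45 and ATRXKD mouse 60. Their mean over 10 genes was 2.94 and 1.27 on the log2 (FPKM + 1) scale, against 0.44 to 0.55 in the other 6 Balb/c tumors. In NSG mice this mean was 0.58 to 1.23 in ATRXCT and 0.55 to 1.58 in ATRXKD tumors. NSG ATRXKD mice 26 and 29 (1.42 and 1.58) were above Balb/c mouse 60. Of the Y-linked genes, 4 of 4 were called lower in Balb/c than in NSG tumors with either kind of cells. Their summed level was 24.2 to 34.3 FPKM in NSG ATRXCT, 13.1 to 21.2 FPKM in NSG ATRXKD, and at most 0.0115 FPKM in Balb/c tumors. The study's methods, however, give female mice and a female cell line. On knock-down in NSG mice, 4 of 4 had the lower mean in ATRXKD tumors (median log2 difference −0.60) and 0 were called. Comparisons between hosts, the interaction included, carry the host difference in these genes too. The NSG comparison of ATRXKD with ATRXCT tumors carries the difference between those groups. Their part in the comparisons was not tested.

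The members showed a common pattern. In 3 of the 5 NSG ATRXKD tumors (mice 28, 29, and 30) and in 2 of the 4 Balb/c ATRXKD tumors (mice 56 and 58), most of the 10 genes stood above the level of the other tumors, and in the remaining ATRXKD tumors they did not. In each of the 5 comparisons 0 members passed the test over all genes, where at most 1.43% of all genes did, and tumors of 1 ATRXKD group differed widely from each other. For Fabp4 and Pparg, all 4 Balb/c ATRXKD tumors lay above all 4 Balb/c ATRXCT tumors, as they did for 1.25% of all genes tested.

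Promoters of members that varied together are shown first, since adipocyte genes share regulators. Of the 10 members, 9 had promoter entries in RefSeq (build GRCm38.p6), with 13 transcription starts in all. Fabp4 had none. Each entry spans 250 bases before to 50 bases after a start. The entries were searched on both strands for the nuclear receptor half-site AGGTCA, for AGGNCA repeated after 1 base (the layout bound by PPARγ with RXR), for TTNNGCAA (letters common in C/EBP sites, chosen after the promoters had been read), and for TATAAA. TTNNGCAA was present in 4 of the 13 member promoters, those of Plin1, Lep, start 2 of Cidec, and start 3 of Pparg, against 10.8% of 32851 promoters of the same length. AGGTCA was present in 2 of the 13, starts 1 and 2 of Pparg, against 16.3% of all promoters. TATAAA was present in 1 of the 13, start 2 of Pparg, against 13.6%, and the repeat was present in none, against 0.38%. A match describes letters only, and factor binding was not measured. The 150 bases before the start are given below for Adipoq and for the 3 members with TTNNGCAA within that stretch, 5′ to 3′ on the strand of the gene, with the match in capitals (either strand). They lie at chr16:23146386-23146535 on the plus strand (Adipoq), chr7:79732777-79732926 on the minus strand (Plin1), chr6:29060071-29060220 on the plus strand (Lep), and chr6:115421916-115422065 on the plus strand (Pparg, start 3).
Adipoq: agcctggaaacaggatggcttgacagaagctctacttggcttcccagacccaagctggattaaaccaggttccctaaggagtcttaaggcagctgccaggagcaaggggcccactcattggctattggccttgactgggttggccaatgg
Plin1: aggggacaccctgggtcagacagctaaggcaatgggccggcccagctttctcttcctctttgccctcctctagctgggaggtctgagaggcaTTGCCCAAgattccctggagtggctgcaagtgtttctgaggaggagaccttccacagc
Lep: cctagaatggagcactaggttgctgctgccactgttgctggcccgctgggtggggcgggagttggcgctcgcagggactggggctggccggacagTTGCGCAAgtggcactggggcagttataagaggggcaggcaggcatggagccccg
Pparg: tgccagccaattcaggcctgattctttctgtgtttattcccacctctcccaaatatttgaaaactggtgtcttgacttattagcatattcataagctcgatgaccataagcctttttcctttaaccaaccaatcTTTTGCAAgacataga
Counted from the start, the match in Plin1 lay at −58 to −51, that in Lep at −55 to −48, and that in Pparg at −16 to −9. The Lep match reads the same on both strands. Outside the stretch shown, Plin1 held another match at −187 to −180 and Pparg start 3 another at −215 to −208. The windows of Adipoq, Plin4, Retn, Cfd, and Lipe held none of the letters searched.

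Among the secreted products, Adipoq (chr16:23146536-23157968 of mm10, plus strand) codes adiponectin, a hormone made almost only by adipocytes. Adipoq was at 0.338, 0.800, 0.279, and 0.340 FPKM in Balb/c ATRXCT mice 41, 43, 44, and 45, and at 1.89, 3.501, 0.544, and 0.218 FPKM in Balb/c ATRXKD mice 56, 58, 59, and 60. In NSG mice it was at 0.289, 2.07, 1.19, 0.919, and 0.760 FPKM in ATRXCT mice 1 to 5, and at 0.577, 0.274, 18.7, 6.16, and 7.53 FPKM in ATRXKD mice 26 to 30. Mice 28, 29, and 30 stood above every other tumor, while mice 26 and 27 lay within or below the NSG ATRXCT range, so the groups overlapped in both hosts. The log2 difference, ATRXKD minus ATRXCT, was 0.64 (SE 0.36, 95% interval −0.18 to 1.46) in Balb/c mice and 1.27 (SE 0.66, −0.17 to 2.72) in NSG mice. Neither passed the test (limma adjusted p = 0.999 and 0.240).

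Cfd (chr10:79890853-79892660, plus strand) codes adipsin, complement factor D, which is abundant in mouse fat and is also made by macrophages. It had the largest SD of the members on the log2 scale in both ATRXKD groups. Cfd was at 2.90, 5.90, 2.52, and 2.06 FPKM in Balb/c ATRXCT mice 41, 43, 44, and 45, and at 9.88, 23.5, 4.61, and 1.66 FPKM in Balb/c ATRXKD mice 56, 58, 59, and 60. In NSG mice Cfd was at 4.14, 12.49, 8.55, 4.81, and 6.17 FPKM in ATRXCT mice 1 to 5, and at 4.21, 1.75, 101, 32.5, and 42.7 FPKM in ATRXKD mice 26 to 30. The highest NSG ATRXKD tumor (mouse 28) was 57.5-fold above the lowest (mouse 27), against 3.02-fold between the extremes of the NSG ATRXCT tumors. The log2 difference was 0.94 (SE 0.60, interval −0.40 to 2.29) in Balb/c mice and 1.25 (SE 0.85, −0.61 to 3.12) in NSG mice, with limma adjusted p = 0.999 and 0.372.

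Retn (chr8:3655770-3659818, plus strand) codes resistin, an adipocyte hormone in the mouse. In Balb/c mice it ranged from 0.218 to 0.873 FPKM in ATRXCT tumors, and was at 3.59 and 3.77 FPKM in ATRXKD mice 56 and 58 but at 0.615 and 0.253 FPKM in mice 59 and 60. In NSG mice it ranged from 0.307 to 2.84 FPKM in ATRXCT tumors and was at 10.2, 3.79, and 4.48 FPKM in ATRXKD mice 28, 29, and 30, against 0.449 and 0.109 FPKM in mice 26 and 27, the last under the floor. The groups overlapped in both hosts, and the log2 differences of 0.74 (SE 0.43) and 0.88 (SE 0.57) did not pass the test (limma adjusted p = 0.999 and 0.353).

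Lep (chr6:29060221-29073876, plus strand) codes leptin, the satiety hormone, which adipocytes release in proportion to fat mass. Lep was listed at 0 in NSG ATRXCT mice 1, 2, and 4 and was at 0.0403 and 0.0374 FPKM in mice 3 and 5, which is near or under the floor. In NSG ATRXKD tumors Lep was at 0.0306 and 0.0291 FPKM in mice 26 and 27, under the floor, and at 2.34, 0.696, and 1.12 FPKM in mice 28, 29, and 30, which is about 163, 45.1, and 87.3 fragments. Mice 28, 29, and 30 thus held leptin RNA well above the floor and the other 7 NSG tumors did not. The log2 difference was 0.71 (SE 0.28, interval 0.11 to 1.32) and did not pass the test (limma adjusted p = 0.128). Lep entered this test only through its level in ATRXKD tumors, since its mean in NSG ATRXCT tumors was 0.0155 FPKM, below the filter of 0.1 FPKM. In Balb/c mice Lep was at 0.0937, 0.0649, 0, and 0.0631 FPKM in ATRXCT mice 41, 43, 44, and 45 and at 0.229, 0.103, 0.0168, and 0.0163 FPKM in ATRXKD mice 56, 58, 59, and 60. Mice 44, 59, and 60 were under the floor. Its mean in Balb/c mice was below the filter, and it was not tested by limma in Balb/c mice or between ATRXCT tumors of the 2 hosts.

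**Figure D1:**
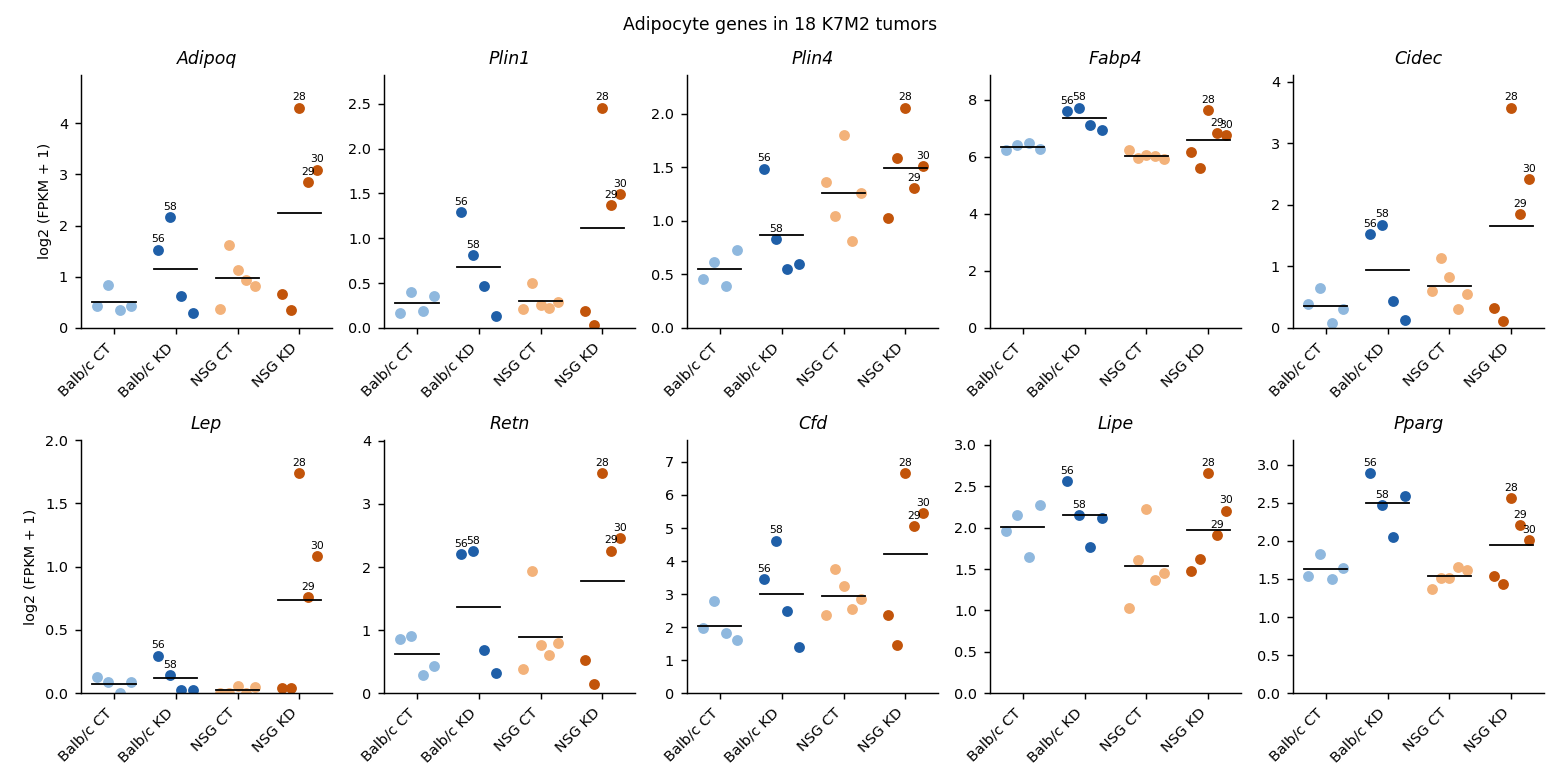
Level of each of the 10 genes on the log2 (FPKM + 1) scale (vertical axis, from 0, scaled by gene) in the 18 tumors of 4 groups (horizontal axis), with 1 point per tumor, a line at each group mean, and mouse numbers beside mice 28, 29, 30, 56, and 58. Mouse 28 is the highest NSG ATRXKD tumor for 10 of 10 genes, and for Fabp4 and Pparg every Balb/c ATRXKD tumor lies above every Balb/c ATRXCT tumor.

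Among the lipid droplet proteins, Plin1 (chr7:79721164-79732776, minus strand) codes perilipin 1, the coat protein of the adipocyte droplet that gates lipolysis. In Balb/c mice it ranged from 0.125 to 0.317 FPKM in ATRXCT tumors and was at 1.45, 0.761, 0.388, and 0.0940 FPKM in ATRXKD mice 56, 58, 59, and 60. In NSG mice it ranged from 0.160 to 0.420 FPKM in ATRXCT tumors and was at 4.49, 1.59, and 1.82 FPKM in ATRXKD mice 28, 29, and 30, against 0.140 and 0.0269 FPKM in mice 26 and 27, the last under the floor. Of the 5 NSG ATRXKD tumors, 3 were thus above all NSG ATRXCT tumors. The log2 differences were 0.40 (SE 0.22) and 0.81 (SE 0.38, interval −0.03 to 1.65), with limma adjusted p = 0.999 and 0.202.

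Cidec (chr6:113424634-113435760, minus strand) codes a protein that fuses droplets into the single large droplet of white adipocytes. It ranged from 0.0560 FPKM, under the floor, to 0.563 FPKM in Balb/c ATRXCT tumors and from 0.238 to 1.20 FPKM in NSG ATRXCT tumors. In ATRXKD tumors Cidec was at 10.98, 2.599, and 4.37 FPKM in NSG mice 28, 29, and 30 and at 1.89 and 2.202 FPKM in Balb/c mice 56 and 58. The other 4 ATRXKD tumors were at 0.0800 to 0.350 FPKM, with NSG mouse 27 (0.0800) and Balb/c mouse 60 (0.0923) under the floor. The log2 differences of 0.59 (SE 0.33) in Balb/c and 0.97 (SE 0.56) in NSG mice did not pass the test (limma adjusted p = 0.999 and 0.293).

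Plin4 (chr17:56100591-56109802, minus strand) codes perilipin 4, a droplet protein of adipocytes that muscle and heart also make. Plin4 was at 0.369, 0.527, 0.316, and 0.653 FPKM in Balb/c ATRXCT mice 41, 43, 44, and 45, and at 1.57, 1.07, 2.49, 0.750, and 1.39 FPKM in NSG ATRXCT mice 1 to 5. All 4 Balb/c tumors lay below all 5 NSG tumors in this comparison of hosts. The log2 difference, Balb/c minus NSG, was −0.71 (SE 0.18, interval −1.10 to −0.32), which did not pass the test over all genes (limma adjusted p = 0.0627, two-sided exact permutation p = 0.0159 over 126 arrangements). It reached 1 call where the pseudocount was 0.1 in place of 1, with a difference of −1.40 and limma adjusted p = 0.0417, where 1.03% of all genes tested were called lower. In ATRXKD tumors the difference was −0.63 (SE 0.23, limma adjusted p = 0.205), with Balb/c ATRXKD mouse 56 at 1.803 FPKM inside the NSG range of 1.04 to 3.16 FPKM. The Plin4 transcript is the longest of the members (5755 nt), and once a trend with transcript length was removed from each library the difference in ATRXCT tumors was −0.88 (limma adjusted p = 0.00422), below the required 2-fold.

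Among the genes of fatty acid handling, Lipe (chr7:25379527-25395987, minus strand) codes hormone-sensitive lipase, which many tissues express. Lipe ranged from 2.14 to 3.83 FPKM in Balb/c ATRXCT, 2.40 to 4.90 in Balb/c ATRXKD, 1.03 to 3.67 in NSG ATRXCT, and 1.78 to 5.33 FPKM in NSG ATRXKD tumors. The groups overlapped in all comparisons. Its log2 differences on knock-down were 0.14 (SE 0.20, interval −0.31 to 0.60) in Balb/c and 0.44 (SE 0.25, −0.12 to 0.99) in NSG mice.

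Fabp4 (chr3:10204342-10208576, minus strand) codes the fatty acid carrier aP2, abundant in adipocytes and made as well by capillary endothelium and macrophages. It was by far the most abundant member. Fabp4 was at 75.2, 84.2, 87.4, and 77.1 FPKM in Balb/c ATRXCT mice 41, 43, 44, and 45, and at 194, 211, 139, and 121 FPKM in Balb/c ATRXKD mice 56, 58, 59, and 60. All 4 ATRXKD tumors were higher, including mice 59 and 60, where Adipoq was not. The means were 81.0 ± 5.79 and 166 ± 42.9 FPKM (SD, n = 4 each), a 2.05-fold ratio. The log2 difference was 0.99 (SE 0.19, interval 0.57 to 1.42), with an unadjusted limma p = 0.000453 that did not pass the adjustment over 14701 genes (adjusted p = 0.351, two-sided exact permutation p = 0.0286, the smallest that 70 arrangements allow). In NSG mice Fabp4 was at 74.9, 61.4, 65.8, 63.6, and 60.0 FPKM in ATRXCT mice 1 to 5, and at 70.7, 47.6, 197, 112, and 107 FPKM in ATRXKD mice 26 to 30. Mice 28, 29, and 30 were above all NSG ATRXCT tumors and mouse 27 was below them. The log2 difference there was 0.55 (SE 0.29, interval −0.10 to 1.20, limma adjusted p = 0.258).

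Pparg (chr6:115360951-115490401, plus strand) codes PPARγ, the master regulator of adipocyte differentiation, which macrophages express too. Pparg was at 1.90, 2.56, 1.82, and 2.13 FPKM in Balb/c ATRXCT mice 41, 43, 44, and 45, and at 6.41, 4.54, 3.12, and 5.01 FPKM in Balb/c ATRXKD mice 56, 58, 59, and 60. All 4 ATRXKD tumors were higher, with mouse 60 the second highest although Adipoq, Cidec, and Cfd were lowest there. The means were 2.10 ± 0.333 and 4.77 ± 1.36 FPKM (SD, n = 4 each), a 2.27-fold ratio. The log2 difference was 0.87 (SE 0.19, interval 0.45 to 1.29), with limma adjusted p = 0.413 and two-sided exact permutation p = 0.0286, again the smallest possible. In NSG mice Pparg was at 1.58, 1.85, 1.85, 2.16, and 2.07 FPKM in ATRXCT mice 1 to 5, and at 1.92, 1.71, 4.88, 3.60, and 3.03 FPKM in ATRXKD mice 26 to 30. Mice 26 and 27 lay inside the ATRXCT range and the other 3 above it, for a log2 difference of 0.42 (SE 0.19, interval −0.0026 to 0.84, limma adjusted p = 0.192).

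Considering the knock-down over all 10 genes, called means a limma adjusted p under 0.05 and at least a 2-fold difference on the log2 (FPKM + 1) scale. In Balb/c mice 0 of the 9 members tested were called, where 0.0068% of 14701 genes (1 gene) were, and 2 members (Fabp4 and Pparg) had an unadjusted p under 0.05. In NSG mice 0 of 10 were called, where 0.464% of 14654 genes (68 genes, 25 higher and 43 lower, or 18 and 51 after median-ratio scaling) were, and 1 member had an unadjusted p under 0.05, which was Lep, let in by its level in ATRXKD tumors. All 9 members tested in Balb/c mice and all 10 in NSG mice had a mean above that of ATRXCT tumors, where 49.2% and 49.8% of all genes tested did. The median log2 difference of the members was 0.64 in Balb/c and 0.76 in NSG mice, against −0.0032 and −0.0014 over all genes tested. The members vary together within groups, so their common direction is not 10 separate observations. Groups did not overlap for 2 of the 9 members in Balb/c mice, both higher in ATRXKD, against 1.25% of all genes tested, and for 0 of 10 members in NSG mice, against 7.5% of all genes in either direction. The NSG calls depended on the weighting of tumors: with library weights and a robust prior, 6 of the 10 members were called higher in NSG ATRXKD tumors (Adipoq, Plin1, Cidec, Lep, Retn, and Cfd, with limma adjusted p between 0.0159 and 0.0375), where 0.539% of all genes tested (79 genes) were called higher and 122 genes lower. The lowest of these p was that of Lep, which was again let in only by its level in ATRXKD tumors.

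**Figure D2:**
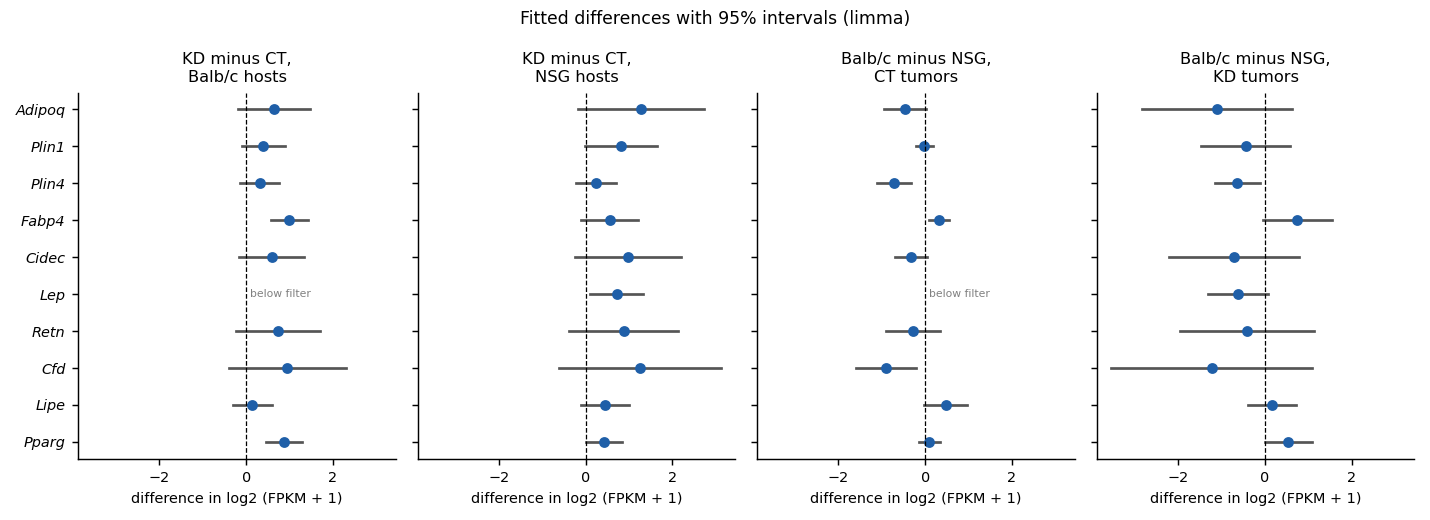
Difference in log2 (FPKM + 1) of each gene (horizontal axis, points, with lines for the 95% interval from limma) in 4 comparisons (panels), with a dashed line at 0. Points lie right of 0 for each gene tested in both comparisons of ATRXKD with ATRXCT, the intervals of Fabp4 and Pparg in Balb/c mice and of Lep in NSG mice clear 0, and no gene passed the adjusted test. Lep was below the filter in the panels so marked.

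For the comparison of hosts, 0 of 9 members were called in ATRXCT tumors, where 1.43% of 14828 genes were, and 0 of 10 in ATRXKD tumors, where 1.39% of 14669 genes were. An unadjusted limma p under 0.05 was found for 3 members in ATRXCT tumors (Cfd, Fabp4, and Plin4) and for 1 in ATRXKD tumors (Plin4). Fabp4 was higher in Balb/c ATRXCT than in NSG ATRXCT tumors without overlap, by 0.31 (SE 0.10, interval 0.08 to 0.54, limma adjusted p = 0.148), where 4.72% of all genes did not overlap in that direction. Plin4 was lower without overlap, where 2.85% of all genes were. Cfd had a log2 difference of −0.91 (SE 0.31, interval −1.59 to −0.22, limma adjusted p = 0.158) with overlapping groups, and the other 6 tested members had differences between −0.46 and 0.47. In ATRXKD tumors no member was without overlap, against 8.13% of all genes, and 3 of 10 members (Fabp4, Lipe, and Pparg) had the higher mean in Balb/c mice. The effect of knock-down was then compared between hosts as an interaction. No member was called (0 of 10), nor was any gene (0%, 0 of 14803), although limma gave an unadjusted p under 0.05 for 659 genes with a positive and 868 with a negative host difference. The lowest adjusted p of a member was 0.519 for Lep, with a host difference of −0.67 (SE 0.34, interval −1.38 to 0.05), and no member had an unadjusted p under 0.05. Lep entered this test, and that between hosts in ATRXKD tumors, only through NSG ATRXKD tumors, the group where it was high (mean 0.843 FPKM). The intervals of the members reached from −2.80 to 2.181 (Cfd), so a difference of several fold between hosts in either direction lay within the interval of that gene.

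The variation between tumors of 1 group was wide for these genes, though not for them alone. In NSG ATRXKD tumors, 9 of 10 members were among the 5% of genes with the largest SD on the log2 scale, with Cfd 31st (SD 2.19), Adipoq 47th (SD 1.69), Cidec 57th, and Retn 61st of 14461 genes. In Balb/c ATRXKD tumors 4 of 9 members were among the top 5%, with Cfd 65th of 14610 genes (SD 1.37). In NSG ATRXCT tumors 2 of 9 were (Retn and Cfd), with a median SD of the members of 0.37 against 0.21 for all genes. In Balb/c ATRXCT tumors 0 of 9 were, with a median SD of 0.23 for the members and for all genes. The mean of the 10 genes on the log2 scale was 1.44 ± 0.16 (SD, n = 4) in Balb/c ATRXCT, 2.01 ± 0.55 (n = 4) in Balb/c ATRXKD, 1.62 ± 0.22 (n = 5) in NSG ATRXCT, and 2.38 ± 1.03 (n = 5) in NSG ATRXKD tumors. The mean of 10 skeletal muscle genes varied more in each group, with SDs of 0.80, 0.79, 1.66, and 1.98 in the same order. In NSG ATRXKD tumors the endothelial, macrophage, keratinocyte, and dermal fibroblast lists varied less than the members (SDs of 0.15, 0.24, 0.45, and 0.54). Mouse 28 had 3.71, mouse 30 had 2.85, and mouse 29 had 2.64, while mice 26 and 27 had 1.44 and 1.24, inside or below the 1.39 to 1.91 of NSG ATRXCT tumors. Mice 56 and 58 had 2.48 each, and mice 59 and 60 had 1.62 and 1.45, inside the 1.27 to 1.67 of Balb/c ATRXCT tumors.

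How far the members ran together was described by Pearson's correlation over the 18 tumors, with each gene centred on its group means so that group differences do not enter. The tumors share a high end, so no p is given. Adipoq, Plin1, Cidec, Lep, Retn, and Cfd had r from 0.83 to 0.98 (Spearman's rho 0.74 to 0.96) over their 15 pairs. Fabp4, Pparg, Plin4, and Lipe had r from 0.46 to 0.76 among themselves over 6 pairs, while Fabp4 had r from 0.85 to 0.92 with each of the first 6 genes. This split was made after the values were seen. Without NSG ATRXKD mice 27 and 28, the tumors farthest from their group mean, r of the 6 genes was 0.68 to 0.97, and without all 5 NSG ATRXKD tumors it was 0.50 to 0.96. With the mean of the other 9 members, r was 0.99 for Cidec and 0.98 for Adipoq, 0.91 for both Lep and Fabp4, but 0.81 for Pparg, 0.73 for Lipe, and 0.51 for Plin4.

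The proportion between members was then compared as the ratio to Adipoq in the 7 tumors with at least 1 FPKM of Adipoq. The ratio of Cfd to Adipoq was 5.24 to 7.19 in these 7 tumors, a 1.37-fold range, while Adipoq itself ran from 1.19 to 18.7 FPKM. Cidec held 0.422 to 1.00 of the Adipoq level. In NSG ATRXKD mice 28, 29, and 30 the ratios were close to each other for Plin1 (0.240, 0.258, and 0.241), Retn (0.547, 0.615, and 0.595), and Lep (0.125, 0.113, and 0.148). Balb/c ATRXKD mouse 56 had more Retn (1.91) and Plin1 (0.767) per Adipoq, and mouse 58 less Lep (0.0293). Fabp4 lay outside this proportion, with 10.5 to 18.2 times the Adipoq level in mice 28, 29, and 30 but 60.1 and 103 times in mice 58 and 56. The ratios of Pparg, Lipe, and Plin4 ranged over 13.04-fold, 10.8-fold, and 12.4-fold.

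**Figure D3:**
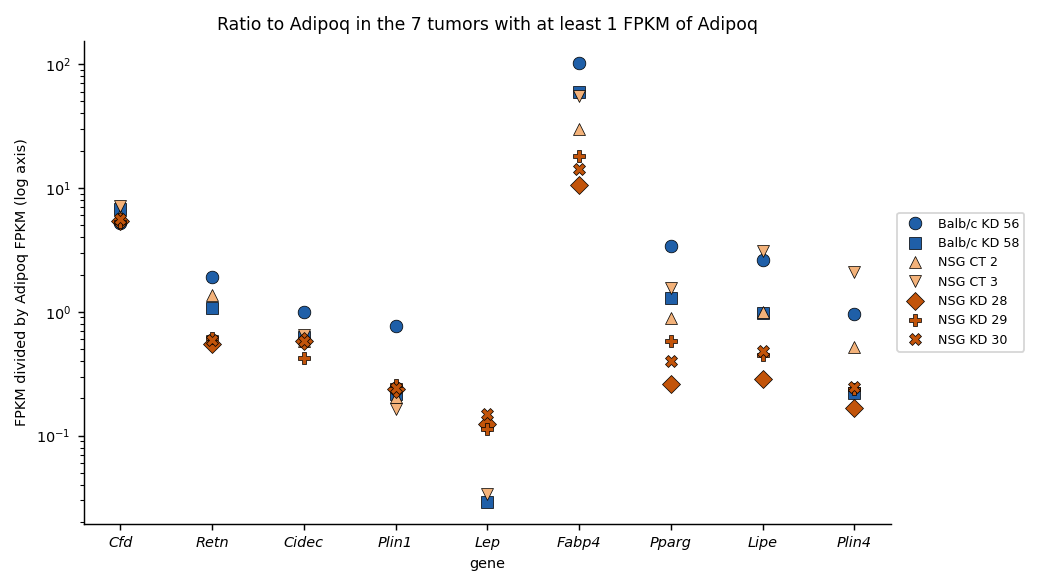
FPKM of 9 genes divided by the FPKM of Adipoq (vertical axis, logarithmic) in the 7 tumors with at least 1 FPKM of Adipoq, 1 symbol per tumor. Cfd lies between 5.24 and 7.19 in all 7 tumors, while Fabp4, Pparg, Lipe, and Plin4 spread widely. Lep was listed at 0 in NSG ATRXCT mouse 2 and has no symbol there.

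Further adipocyte genes were read from a list of 20 genes made with earlier results of these data known. Of these, 16 were tested in Balb/c and 17 in NSG mice, and 0 were called on knock-down in either host. In Balb/c mice 14 of 16 had the higher mean in ATRXKD tumors (median log2 difference 0.13) and in NSG mice 12 of 17 (median 0.24). The 2 most abundant, Cav1, which codes the main protein of caveolae, and Angptl4, an inhibitor of lipoprotein lipase, had NSG differences of 0.59 (SE 0.12, limma adjusted p = 0.0187) and 0.37 (SE 0.08, adjusted p = 0.0280), under the 2-fold required. Among the 8 genes whose within-group pattern was most like the mean of the 10 members, out of 12173 genes with at least 1 FPKM, 3 were on this list. They were Gpd1 (r = 0.94), the glycerol phosphate dehydrogenase that feeds triglyceride synthesis, Sncg (r = 0.93), coding γ-synuclein, and Car3 (r = 0.86), a carbonic anhydrase abundant in fat and muscle. The other 5 were Thrsp (r = 0.92), a regulator of lipogenesis, Dgat2 (r = 0.89), which makes triglyceride, Cdo1 (r = 0.88), a cysteine dioxygenase, Gpr39 (r = 0.86), and Steap4 (r = 0.85), a metalloreductase of adipocytes. Gpd1, Thrsp, and Cdo1 had medians of 0.395 to 0.930 FPKM in the ATRXCT groups. They reached the filter through ATRXKD tumors, so the filter favored genes that are high there. Sncg ranged from 0.478 to 10.1 FPKM in NSG ATRXKD and from 0.446 to 1.83 FPKM in NSG ATRXCT tumors. Its means were 0.714, 0.813, and 1.22 FPKM in Balb/c ATRXCT, Balb/c ATRXKD, and NSG ATRXCT tumors, against 4.04 in NSG ATRXKD tumors. The filter thus favored Sncg too.

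**Figure D4:**
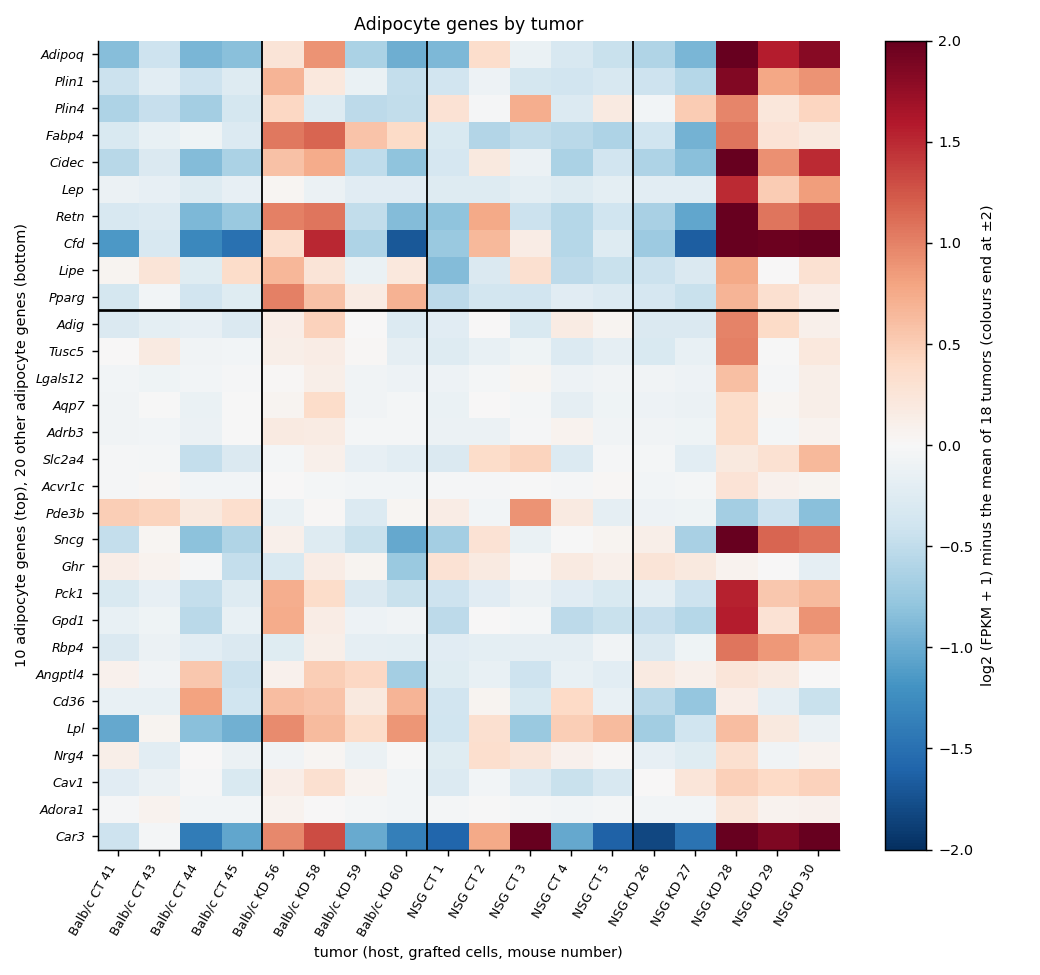
Level of the 10 adipocyte genes (top block) and 20 other adipocyte genes (bottom block) in each of the 18 tumors (columns), as log2 (FPKM + 1) minus the mean of the 18 tumors, with colours ending at ±2. Mice 28, 29, and 30 are red for Adipoq, Cidec, Retn, Cfd, and Car3, mice 26 and 27 are not, and low genes such as Adora1 barely vary on this scale.

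Genes of triglyceride synthesis and lipolysis gave 0 of 18 tested as called in either host, with 11 of 18 higher in Balb/c ATRXKD (median log2 difference 0.12) and 13 of 18 in NSG ATRXKD tumors (median 0.20). Plin2, the droplet coat protein of most cell types, was far more abundant than Plin1, at 109 to 258 FPKM over the 18 tumors, and Fabp5, the epidermal fatty acid carrier, was at 34.3 to 210 FPKM. Plin2 had log2 differences of 0.06 (SE 0.27) and −0.05 (SE 0.12) on knock-down. Of the adipogenic transcription factors, 0 of 13 were called in either host, and 7 of 13 were higher in each. Cebpb and Klf4, both early factors of adipogenesis with roles in many cells, were the most abundant (58.4 and 40.9 FPKM over the 18 tumors), and Cebpb had log2 differences of 0.06 (SE 0.18) and −0.05 (SE 0.15). Brown fat genes gave 0 of 6 called in either host. Ucp1, the uncoupling protein that defines brown fat, had a mean of 0.0196 FPKM over the 18 tumors and at most 0.0619 FPKM in any, and the most abundant genes of that list, Cox7a1 and Cox8b (11.1 and 1.68 FPKM), are also muscle genes. Progenitor genes gave 0 of 7 and 0 of 9 called on knock-down. Their mean on the log2 scale was highest in NSG ATRXKD mice 28, 29, and 30 (2.89, 2.87, and 2.80), against 2.39 and 2.40 in mice 26 and 27. The same 3 tumors were highest of the 18 for the brown fat list (0.86, 0.89, and 0.97) and the triglyceride list (4.15, 4.07, and 4.09). Ly6a, a surface marker of stromal progenitors and endothelium, was lower in Balb/c than in NSG ATRXCT tumors, by −1.50 (SE 0.32, limma adjusted p = 0.0324). Receptors of leptin and adiponectin were present in all groups, with 0 of 4 called in each comparison on knock-down, and Adipor1 and Lepr averaged 63.7 and 33.3 FPKM.

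Markers of other cell types were set beside the members. Endothelial genes had a mean over 10 genes of 2.74 ± 0.22 in Balb/c ATRXCT, 3.24 ± 0.45 in Balb/c ATRXKD, 2.06 ± 0.42 in NSG ATRXCT, and 2.71 ± 0.15 in NSG ATRXKD tumors (log2 scale, SD), with 9 of 10 genes at a higher mean in ATRXKD tumors in each host and 0 called. Pecam1 and Cldn5 came closest in NSG mice, with differences of 0.93 (SE 0.21, limma adjusted p = 0.0280) and 0.80 (SE 0.17, adjusted p = 0.0240), under the 2-fold required. The list's summed summed level was 61.8 to 96.7, 86.3 to 198, 29.1 to 70.9, and 61.0 to 86.7 FPKM in these groups. Balb/c ATRXKD mice 56 and 58, the highest for Fabp4, were also the highest for endothelial genes (3.84 and 3.24), whereas in NSG ATRXKD tumors mouse 27, the lowest for Fabp4 at 47.6 FPKM, had an endothelial mean of 2.71, close to the 2.88 of mouse 28 at 197 FPKM. The part of endothelium in the Fabp4 values was not tested. Pecam1, the junction protein of endothelium, was higher in Balb/c than in NSG ATRXCT tumors by 1.14 (SE 0.25, limma adjusted p = 0.0348), and Cldn5, a tight junction protein, in ATRXKD tumors by 1.17 (SE 0.21, adjusted p = 0.0109).

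Macrophage genes had lower means in ATRXKD tumors for 9 of 10 genes in each host, with 0 called, and Lyz2, the lysozyme of macrophages, had an NSG difference of −0.97 (SE 0.25, limma adjusted p = 0.0400), under the 2-fold required. Their summed level was 2156 to 3404 FPKM in Balb/c ATRXCT, 1728 to 3051 in Balb/c ATRXKD, 2512 to 3507 in NSG ATRXCT, and 1618 to 2884 FPKM in NSG ATRXKD tumors. Dermal fibroblast genes were highest in the same NSG ATRXKD mice 28, 29, and 30 (means of 2.54, 2.48, and 2.37) as the members, against 1.43 and 1.55 in mice 26 and 27, with 10 of 10 genes at a higher mean in NSG ATRXKD tumors and 0 called. Their summed level was 18.5 to 33.5, 18.1 to 42.1, 32.2 to 71.7, and 28.6 to 112 FPKM in the 4 groups in the same order. Dpt, coding dermatopontin of the dermal and adipose stroma, was lower in Balb/c than in NSG ATRXCT tumors by −1.10 (SE 0.26, limma adjusted p = 0.0498). In Balb/c ATRXKD mice 56 and 58 the dermal fibroblast genes were at 1.19 and 1.47, inside the 1.09 to 1.65 of Balb/c ATRXCT tumors. Skeletal muscle genes were high in NSG ATRXCT mice 2 and 3 (3.68 and 5.11), the highest of their group for the mean of the members, and in NSG ATRXKD mice 29 and 30 (4.12 and 5.47). They were low in mouse 28 (0.93), the tumor with the highest adipocyte level, and in Balb/c ATRXKD mouse 56 (0.81). Their part in the members' values was not tested. Keratinocyte genes were at 0.69, 1.58, and 0.55 in mice 28, 29, and 30. Mammary genes had a mean over 9 genes of 0.11 to 0.31 in the 10 NSG tumors, where the milk protein genes Csn1s1 and Csn2 and the mammary factor Elf5 were listed at 0 and Csn3, coding kappa-casein, was at 0.0333 to 0.706 FPKM. Their mean was highest in Balb/c ATRXKD mouse 56 (0.955), which was also high for the members, and their part there was not tested. Genes of sebaceous glands gave 0 of 5 called on knock-down in each host. T cell genes were called higher in Balb/c than in NSG tumors for 7 of 9 genes with both kinds of cells. What share of host fat each tumor sample held was not measured, and its part in the values was not tested.

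**Figure D5:**
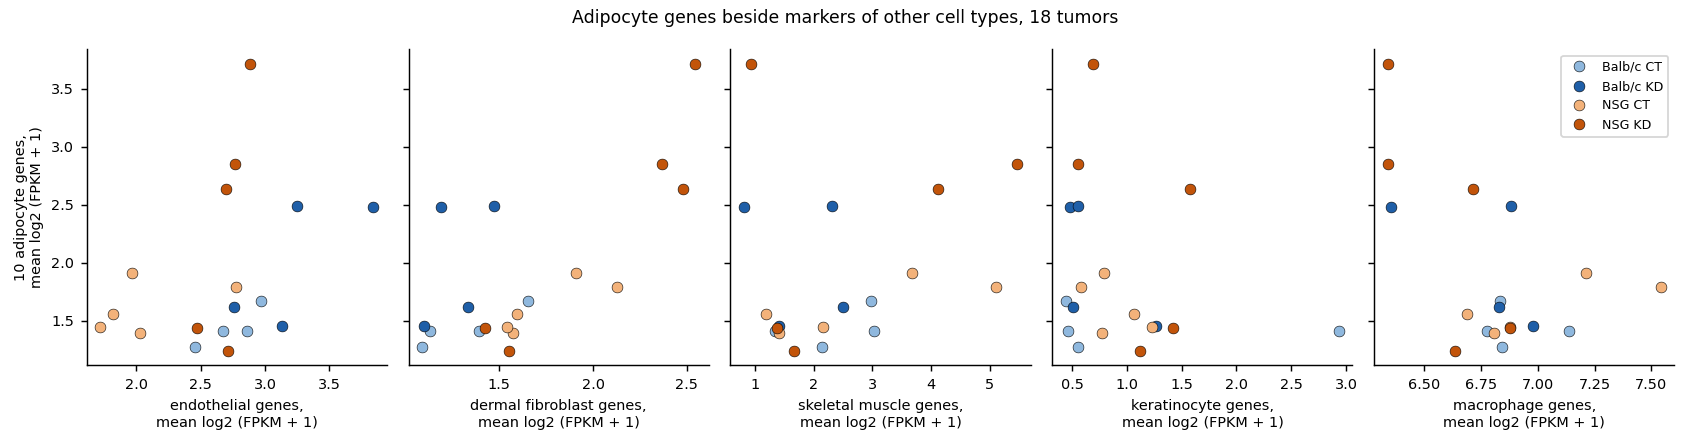
Mean log2 (FPKM + 1) of the 10 adipocyte genes (vertical axis) against the mean of 10 marker genes of 5 other cell types (horizontal axes) in the 18 tumors, coloured by group. The 3 highest NSG ATRXKD tumors have the highest dermal fibroblast means (2.37 to 2.54), while their skeletal muscle means run from 0.93 to 5.47.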

How the data were processed

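Alignment by the authors used STAR 2.6.0c and mm10. They then discarded duplicate and poor reads and obtained values per RefSeq gene from Cufflinks 2.2.1. The deposited matrix holds log2 (FPKM + 1), per the authors without a stated normalization between libraries. Base 2 was settled from the values, since the sum of FPKM times transcript length was 1.10 to 1.13 times the value that a complete library gives, and natural logs would have given 8.45 to 11.2. The 92 spike-in rows were left out. Depth was estimated from the steps between low values. Only 37.3% to 42.5% of these lay within 0.1 of a whole fragment (20% by chance), so whole reads were not recovered and no count test was run. Floors of 3 fragments cover counting error only.

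Tumors were grouped by their labels. Genes averaging 0.1 FPKM or more over the tumors compared were tested with limma 3.58.1 in R 4.3.3 (lmFit and eBayes with trend, pseudocount 1, Benjamini-Hochberg adjustment over all genes tested), each pair of groups alone and the interaction over all 18 tumors. Two-sided exact permutation tests compared single genes. The steps were tested on simulated data with independent values and shifts shared by all tumors of a group, in genes above a set level. Many members are lower and they vary together, so that test does not cover them. The members and gene lists were chosen with earlier results of these data known. Named genes were taken from the members, Atrx, from each other list the called genes (up to 4) or its 2 most abundant, and the 8 genes most like the members in pattern. Further genes (Ucp1, Phex, Runx2, Alpl, Bglap, Bglap2, Sp7, Dmp1, Ibsp, Csn1s1, Csn2, Csn3, Elf5, Krt18, Lalba) were named after their values were seen. Alternatives were the pseudocount (0.1), median-ratio scaling, no filter or a filter at 1 FPKM, library weights, 1 fit of all tumors, removal of a trend with transcript length, no fold threshold, and leaving out each tumor. After seeing the data, both Balb/c tumors with raised keratinocyte genes were left out too, while NSG tumors with like levels stayed in.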

Additional observations from a re-analysis of the deposited data

Results flagged for a closer look

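In each of the 4 groups the 10 members and their mean were checked, 44 sets of values in all, and 3 held a tumor far from the others of its group, where 2.2 would by chance. Adipoq in Balb/c ATRXCT mouse 43 was at 0.8481 on the log2 (FPKM + 1) scale, with the nearest other tumor at 0.4227. In NSG ATRXCT mouse 2, Plin1 was at 0.5059, with the nearest other tumor at 0.2843, and Retn was at 1.942, with the nearest at 0.790. Both mice had the highest mean of the 10 genes in their group (1.67 and 1.91). NSG ATRXKD mouse 28, the highest for 10 of 10 members in its group, was not among them. For all members but Plin4, mice 29 and 30 lay between it and the rest. For Plin4, mouse 28 was at 2.06 on the log2 scale and the nearest tumor was mouse 27 at 1.58.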

How the results depend on the processing

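No paired analysis was possible because the mouse numbers differ between all 4 groups. With library weights and a robust prior, 6 members were called higher in NSG ATRXKD than in ATRXCT tumors (0.539% of all genes), where 0 were in the main analysis. Lep, let in by its level in ATRXKD tumors, is among these. With a pseudocount of 0.1, 1 member (Plin4) was called lower in Balb/c than in NSG ATRXCT tumors (1.03% of all genes). The host difference of the mean of the 10 genes in ATRXCT tumors was −0.18, and −0.50 for their median. Signs turned for some differences that had not passed the test. Between hosts these were Retn (0.0383 with weights) and Plin1 (0.0385 with the length trend removed) in ATRXCT tumors and Lipe (−0.15 with weights) in ATRXKD tumors. For the interaction these were Retn (0.12 with pseudocount 0.1), Plin4 (−0.19 with weights), and, without both Balb/c tumors with raised keratinocyte genes, Retn (0.15) and Cfd (0.0724). Leaving out 1 tumor at a time gave −0.0598 to 0.0318 for Plin1 between hosts in ATRXCT tumors, −0.82 to 0.0175 for Retn in ATRXKD tumors (−0.41 with all tumors, highest without NSG ATRXKD mouse 28), and for the interaction −0.13 to 0.22 for Plin4, −0.54 to 0.29 for Retn, −0.997 to 0.31 for Cfd, and −0.77 to 0.0938 for Cidec. The cause of these changes was not tested. Of the other settings 385 values kept direction and side of the threshold, as did 508 values without 1 tumor. Without 1 tumor, the difference in NSG mice was 0.76 to 1.75 for Adipoq and 0.46 to 0.89 for Lep, and that in Balb/c mice 0.87 to 1.13 for Fabp4 and 0.74 to 1.02 for Pparg.

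Counts over all genes moved more. In NSG mice the 68 genes became 226 with pseudocount 0.1, 201 with weights, 994 with no fold threshold, 27 without NSG ATRXKD mouse 30, and 124 without NSG ATRXKD mouse 26. In Balb/c mice the 1 gene became 15 with weights and 9 with all tumors in 1 fit. Between hosts the 212 and 204 genes became 416 and 424 with pseudocount 0.1, and 472 and 534 with no fold threshold. The interaction count of 0 became 195 with weights. Depth limits Lep most, since 9 of 18 tumors lay at or under the floor of 3 fragments.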
